A study of Drosophila melanogaster with 6 samples.

Results

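The 38 genes described here are those that build a working neuron: neuron-specific RNA-binding proteins and transcription factors, proteins of the axon and of synaptic adhesion, the machinery that fuses synaptic vesicles, the scaffold of the active zone, the genes of transmitter synthesis and loading, and the sodium and potassium channels. They were chosen by name and are 38 of the 17714 genes in the tables, and all 38 identifiers were found. RNA from pools of whole *Drosophila* embryos of mixed stages was sequenced in 6 samples. The first group was 3 replicates labelled as *Raf926* -/-, which the study describes as embryos of mothers whose germline was homozygous for *Raf926*, a 17-nucleotide frameshift deletion in the kinase gene *Raf*, made by the ovoD2 and FRT19A technique on a *w* X chromosome. The second group was 3 WT replicates, for which the study names Oregon R as the wild-type strain. In the crosses that the study lists the father could still give a copy of *Raf*, and the 2 genotypes came from different strains. The sample records give egg laying for 24 h at 25 °C, while the study's methods give a shorter collection at a lower temperature, and this conflict was not settled here.

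In the fly embryo, neurons arise from neuroblasts of the ventral and procephalic neuroectoderm and, in the periphery, from sensory organ precursors. A neuron first switches on RNA-binding proteins and transcription factors that mark its fate, then extends an axon, and late in embryogenesis makes the synaptic and channel proteins by which it fires. At a synapse the vesicle SNARE (nSyb) pairs with the membrane SNAREs (Syx1A and Snap25) under the control of the calcium sensor Syt1, and the active zone holds calcium channels next to the vesicles. The embryonic motor neurons of the fly use glutamate, while acetylcholine and GABA are the main transmitters of the central nervous system. The question here was how far this set of genes was still expressed when the maternal *Raf* product was missing.

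The samples held between 33275401 and 38120428 expected counts in total, and the smallest count of any of the 38 genes in any sample was 17, so that each was detected in every sample. *Raf* itself had 2539, 2935 and 2184 normalized counts in WT replicates 1, 2 and 3 and 1202, 1399 and 1546 in *Raf926* replicates 1, 2 and 3, the order used throughout (log2 fold change −0.88, standard error 0.15, adjusted p = 0.0016), without overlap. Normalized counts are expected counts scaled between libraries by edgeR's TMM method, and fold changes were tested with edgeR (quasi-likelihood), adjusting p by the Benjamini-Hochberg method for the 11568 genes that were tested. Below, a gene is called higher or lower if its adjusted p was under 0.1 and it changed by over 1.5-fold. For one gene alone, 3 samples against 3 limit an exact two-sided permutation p to 0.1 or more. Some libraries stood apart. WT replicate 3 was the highest WT replicate in 35 of the 38 genes and WT replicate 2 the lowest in 34, where over all genes tested these shares were 38.3% and 35%. The same WT replicate was the highest in 9 of 9 muscle markers and 4 of 4 markers of differentiated epidermis, and the lowest in 5 of 5 maternal transcripts. *Raf926* replicate 2 held far more muscle RNA than its partners, with summed normalized counts over the 9 muscle markers of 3595, 23436 and 2552 in the *Raf926* replicates against 201900.2, 150993 and 276848 in WT.

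Most of the neuronal genes were lower in *Raf926* embryos, but not all of them. Of the 38 genes, 26 were called lower, 1 was called higher (*Syx1A*) and 11 were not called. Over all genes tested 26.9% were called lower and 22.7% higher, 49.7% in all. Their median log2 fold change was −1.32, against −0.04 over all genes tested, and single genes ranged from −4.11 (*VGlut*) to 0.63 (*Syx1A*). Every *Raf926* replicate lay below every WT replicate in 27 of the 38 genes, where this was so for 35.2% of all genes tested, and above it in 2 (33.3% of all genes). The 9 others overlapped, while 68.5% of all genes tested did not overlap. In 6 genes the *Raf926* mean was at 20% of WT or less, and in a further 17 it was at 50% or less. The shares of all genes tested at these levels were not computed, so these 2 counts have no background beside them. In a bulk sample of embryos of mixed stages, fewer neurons, less RNA per neuron and another mix of stages cannot be told apart. Without TMM, scaling by library size alone moved the median of all genes by −0.20 on the log2 scale and gave 28 of the 38 genes called lower and left *Syx1A* uncalled, and it gave 3833 lower and 1967 higher over all genes.

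**Figure D1:**
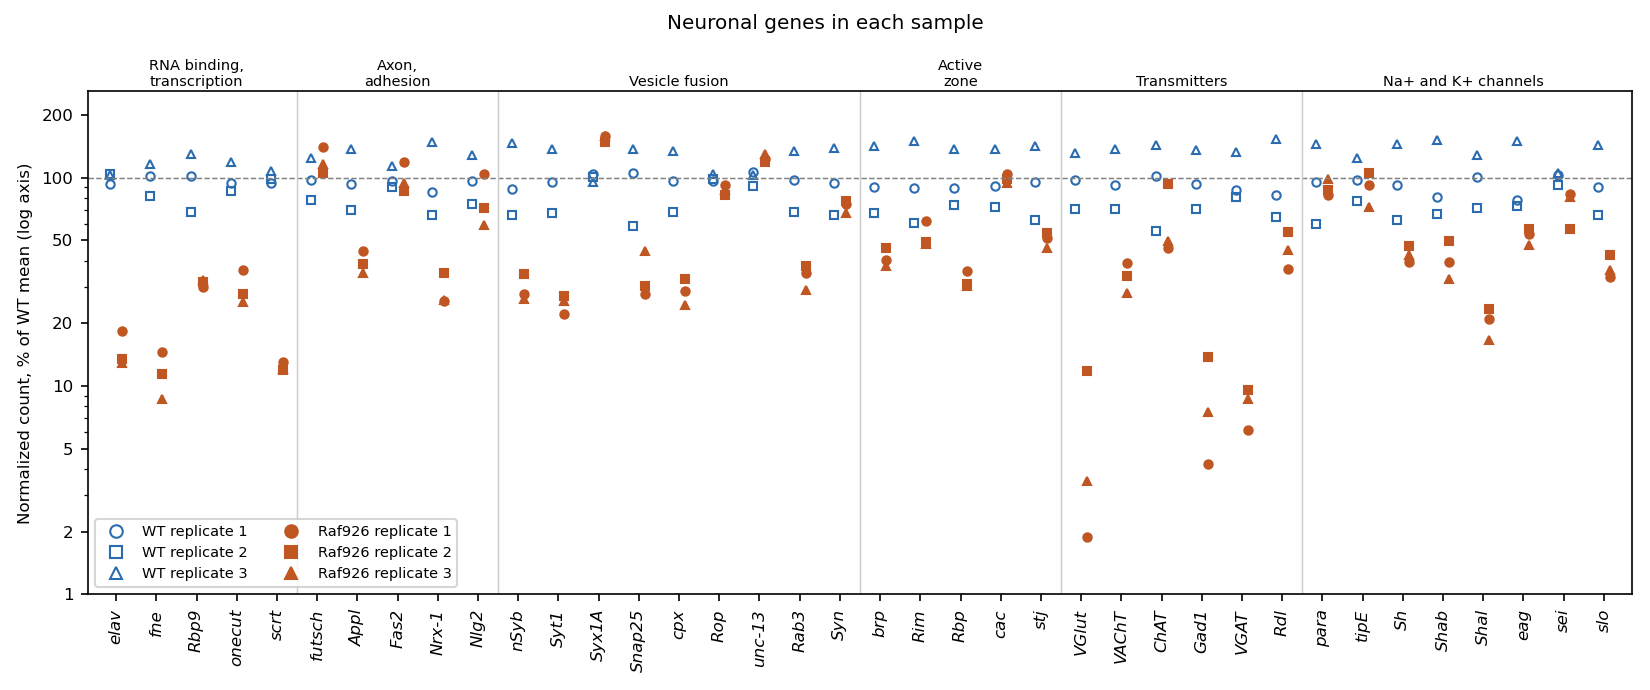
Normalized counts of the 38 neuronal genes in each sample as a percent of the WT mean, on a log axis, with open blue symbols for the 3 WT and filled orange symbols for the 3 *Raf926* replicates. The 5 RNA-binding and transcription factor genes lie well below WT, *VGlut*, *Gad1* and *VGAT* lie lowest with *VGlut* at 5.74% of WT on average, and *Syx1A* lies above WT at 155%.

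The RNA-binding proteins and transcription factors that mark neurons were reduced as a whole, with 5 of 5 genes called lower and a median log2 fold change of −2.75. *elav* encodes the RNA-binding protein used as the general marker of fly neurons (FBgn0260400; chromosome X, 509235 to 523226 of BDGP6.54). *elav* had 11765, 13059 and 12966 normalized counts in WT and 2314, 1698 and 1621 in *Raf926*. The *Raf926* replicates lay far below WT, at 14.9% of its mean (log2 fold change −2.75, standard error 0.15, adjusted p = 2.3e-05). In BDGP6.54 it shares 27.9% of its exon bases with a noncoding gene on the same strand, *lncRNA:enrr*, which was not tested. *fne*, an *elav* paralog, had 4313, 3458 and 4955 normalized counts in WT and 621, 482 and 366 in *Raf926*. This was the largest reduction in the group (log2 fold change −3.12, standard error 0.22, adjusted p = 5.2e-05). *Rbp9*, the third paralog, kept more of its RNA, with 572, 386 and 733 normalized counts in WT and 169, 178 and 183 in *Raf926* (log2 fold change −1.67, standard error 0.26, adjusted p = 0.0011). Set against *elav* within each sample in TPM, a level per transcript length that needs no scaling between libraries, *fne* was at 0.489, 0.339 and 0.471 times *elav* in the WT replicates and 0.307, 0.329 and 0.279 times in the *Raf926* replicates. *Rbp9* was at 0.0761, 0.0441 and 0.0869 times *elav* in WT and 0.103, 0.161 and 0.175 times in *Raf926*. The *fne* ratio was lower and the *Rbp9* ratio higher in every *Raf926* replicate than in every WT replicate, but for *fne* the nearest replicates almost met (exact permutation test of the log2 ratio, two-sided, p = 0.1 for each, the smallest it can give; these ratios are among 14 chosen after the values were seen).

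Both transcription factors of the group were reduced as well. *scrt* encodes a zinc finger protein of the Snail family that is expressed in neurons. It had 3128, 3263 and 3576 normalized counts in WT and 432, 396 and 403 in *Raf926*, which left 12.3% of WT (log2 fold change −3.02, standard error 0.11, adjusted p = 7.7e-06). Its replicates lay close together in both genotypes, and it had the smallest standard error of the 26 reduced genes. *onecut*, a homeodomain factor of differentiating neurons on chromosome 4, had 2119.6, 1941 and 2678 normalized counts in WT and 811, 619 and 568 in *Raf926* (log2 fold change −1.75, standard error 0.18, adjusted p = 0.00022). *onecut* thus kept 29.6% of its WT counts, more than *scrt* did. All 5 genes of the group were still called whichever single sample was left out.

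Neuroblasts and glia were measured beside the neurons. The 5 neuroblast markers (*dpn*, *ase*, *wor*, *mira* and *insc*) were all called lower, with a median log2 fold change of −2.54 and summed normalized counts of 15561, 22103 and 17626 in WT and 3819, 3089.9 and 2842 in *Raf926*. Of the 7 glial markers, 4 were called lower (*Eaat1*, *wrapper*, *repo* and *gcm*) and 3 were not called (*nrv2*, *loco* and *moody*), with sums of 16079.5, 16907 and 18087 in WT and 13002, 10922 and 11568 in *Raf926*. The uncalled *nrv2* and *loco* made the largest parts of these sums (WT means of 7021 and 4962). The 4 called markers were at 4.38% to 41.9% of WT and the 3 uncalled at 66.8% to 101%. The lowest, *Eaat1*, rested on 2, 75 and 13 counts in *Raf926* replicates 1, 2 and 3 (standard error 0.89), and *wrapper* was next at 20.05%. *repo*, which defines most glia, had a log2 fold change of −1.34 (standard error 0.22). The 4 markers of differentiated epidermis (*serp*, *verm*, *kkv* and *knk*) were called higher, and so were 4 of 5 maternal or germ plasm transcripts (*bcd*, *nos*, *osk* and *pgc*, but not *gcl*), with sums of 8798, 8762 and 5365 in WT and 13991, 17224 and 17761 in *Raf926*. The part of these other cells and transcripts in the neuronal values was not tested.

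The genes of the axon and of cell adhesion split, with 2 of 5 called lower and 3 not called. *Appl*, the fly homolog of the amyloid precursor protein and expressed in neurons, had 3609, 2721 and 5304 normalized counts in WT and 1733, 1489 and 1351 in *Raf926*. The genotypes did not overlap (log2 fold change −1.35, standard error 0.23, adjusted p = 0.002). *Nrx-1*, which encodes the presynaptic adhesion protein Neurexin, had 805, 629 and 1403 normalized counts in WT and 242, 329 and 246 in *Raf926* (log2 fold change −1.79, standard error 0.31, adjusted p = 0.002). *Nrx-1* fell to 28.8% of WT. *Nlg2* encodes a Neuroligin, one of the partners of Neurexin, and had 320.2, 249 and 428 normalized counts in WT and 344, 238 and 198 in *Raf926*. Its groups overlapped and it was not called (log2 fold change −0.35, 95% interval −1.03 to 0.32).

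*Fas2* and *futsch* were not called either. *Fas2* encodes an adhesion molecule of fasciculating axons that is also made by some epithelial cells. It had 7578, 7141 and 8980.1 normalized counts in WT and 9368, 6790.2 and 7446 in *Raf926*. The groups overlapped fully, and the log2 fold change was −0.01 with a 95% interval of −0.34 to 0.33, an interval within the fold change of 1.5. Its sign changed when WT replicate 3, *Raf926* replicate 2 or *Raf926* replicate 3 was left out, to at most 0.12. *futsch*, which encodes the microtubule-associated protein recognized by the antibody 22C10 and is strong in sensory neurons and axons, had 1045, 846 and 1341 normalized counts in WT and 1507, 1137 and 1247 in *Raf926* (log2 fold change 0.27, 95% interval −0.18 to 0.71). Here too the groups overlapped.

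**Figure D2:**
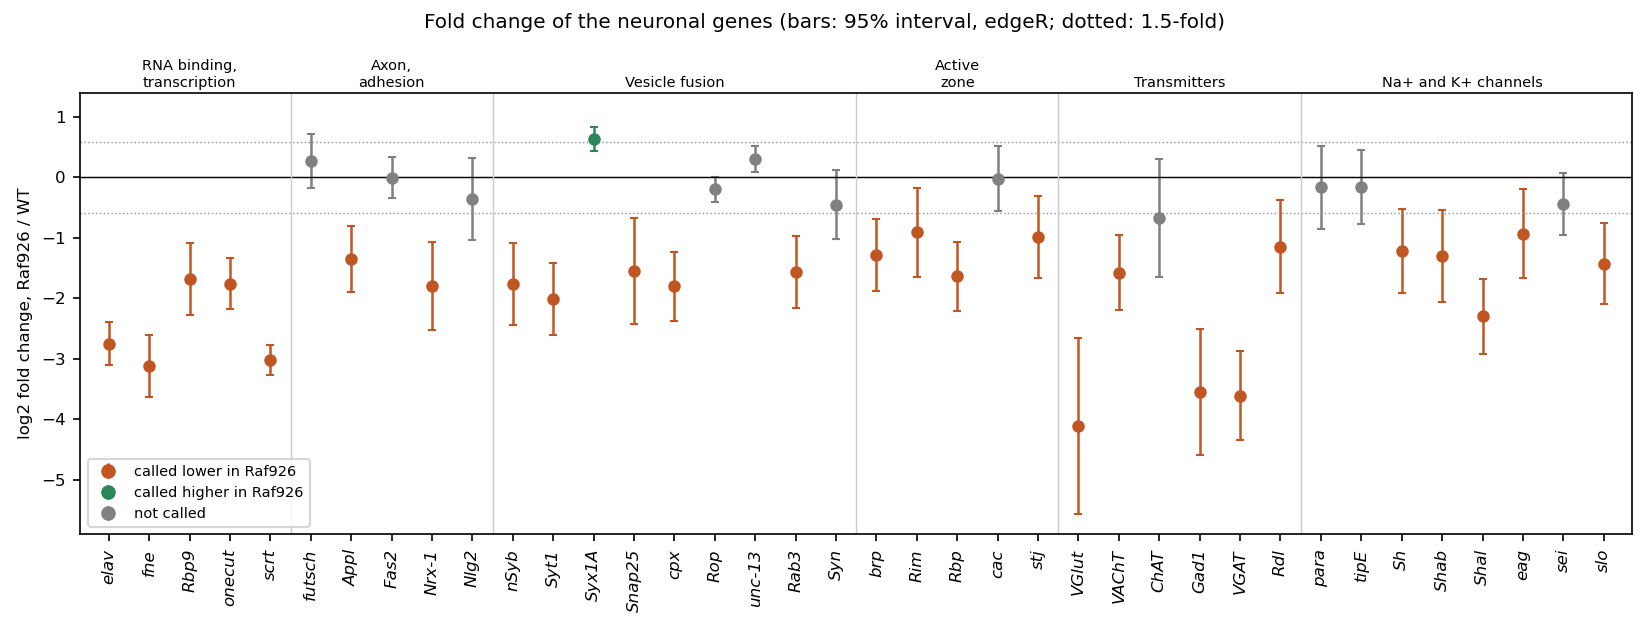
Log2 fold changes of the 38 neuronal genes between *Raf926* and WT from edgeR, with 95% intervals as bars, dotted lines at a fold change of 1.5 and colours for the call. The 26 genes called lower extend down to −4.11 for *VGlut*, *Syx1A* is the one gene called higher, and the 11 uncalled genes are spread over 5 of the 6 role groups.

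The vesicle fusion machinery did not change as a unit. Of its 9 genes, 5 were called lower, *Syx1A* was called higher and 3 were not called. The vesicle SNARE gene *nSyb* had 1394, 1048 and 2321 normalized counts in WT and 441, 545 and 417 in *Raf926*, and it fell to 29.5% of WT (log2 fold change −1.76, standard error 0.29, adjusted p = 0.0015). *Snap25*, a membrane SNARE gene, was low in both genotypes, with 185, 103 and 241 normalized counts in WT and 48.9, 53.5 and 78.8 in *Raf926* (log2 fold change −1.54, standard error 0.38, adjusted p = 0.009). The third SNARE gene went the other way: *Syx1A* had 2795, 2701 and 2570.3 normalized counts in WT and 4254, 3992 and 4268 in *Raf926*. Every *Raf926* replicate was above every WT replicate (log2 fold change 0.63, standard error 0.09, adjusted p = 0.0007), and the rise was just past the fold change of 1.5. It was called whichever single sample was left out, but not with library size alone (log2 fold change 0.44) or upper-quartile normalization (0.475), where it stayed positive. *Syx1A* also serves membrane addition outside neurons. In BDGP6.54 it shares 10.7% of its exon bases with *eIF4EHP* on the same strand. *eIF4EHP* had 1988, 1958 and 1826 normalized counts in WT and 2416, 2374 and 2569 in *Raf926*. That gene was higher without overlap but short of the fold change of 1.5 (log2 fold change 0.35, standard error 0.09, adjusted p = 0.013). The part of the shared bases in the *Syx1A* rise was not tested.

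The change in balance between the SNAREs can be read within each sample, where no scaling between libraries enters. The TPM of *nSyb* was 0.623, 0.526 and 1.18 times that of *Syx1A* in the WT replicates and 0.162, 0.192 and 0.136 times in the *Raf926* replicates. *Snap25* stood at 0.106, 0.0617 and 0.152 times *Syx1A* in WT and 0.0173, 0.0199 and 0.0273 times in *Raf926*. For the calcium sensor gene *Syt1* the ratio to *Syx1A* was 0.471, 0.355 and 0.756 in WT and 0.0723, 0.0877 and 0.0814 in *Raf926*. None of the 3 ratios overlapped between genotypes (exact permutation test of the log2 ratio, two-sided, p = 0.1 for each, the smallest it can give). Relative to *Syx1A*, the neuronal SNARE partners and the calcium sensor were lower in *Raf926* embryos in every replicate. *Syx1A* was higher and the 3 other genes lower without overlap in the counts, so the ratios restate those changes. Their separation is no further support, and the pairs were chosen after the values were seen.

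*Syt1*, *cpx* and *Rab3* fell alongside *nSyb*. *Syt1* had 1722, 1219 and 2484 normalized counts in WT and 403, 487 and 460.4 in *Raf926* (log2 fold change −2.01, standard error 0.26, adjusted p = 0.00049). *cpx*, whose product complexin clamps the assembled SNAREs, had 3305, 2341 and 4605 normalized counts in WT and 982, 1121 and 837 in *Raf926* (log2 fold change −1.80, standard error 0.24, adjusted p = 0.00063). *Rab3*, a GTPase of the synaptic vesicle, had 1018, 715 and 1414 normalized counts in WT and 364, 394 and 305 in *Raf926* (log2 fold change −1.56, standard error 0.26, adjusted p = 0.0016). The 3 genes kept between 24.9% and 33.8% of WT, and in each the lowest WT replicate lay above the highest *Raf926* replicate.

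The regulators of SNARE assembly *Rop* and *unc-13*, and the vesicle protein gene *Syn*, were not called. *Rop* encodes the Sec1/Munc18 protein that binds syntaxin and is needed for secretion in many tissues. It had 3421, 3501 and 3699 normalized counts in WT and 3264, 2925 and 3088 in *Raf926*, without overlap but short of the fold change of 1.5 (log2 fold change −0.20, standard error 0.09, adjusted p = 0.096). *unc-13*, whose product primes vesicles, lies on chromosome 4 and had 8215, 7043 and 8012 normalized counts in WT and 9502, 9267 and 10039 in *Raf926*. The *Raf926* replicates were again apart from WT, here above it, by less than 1.5-fold (log2 fold change 0.31, standard error 0.10, adjusted p = 0.024). It shares 15.6% of its exon bases with an antisense RNA gene, and whether reads were counted by strand is not given in the sources used here. *Syn*, which encodes synapsin, had 1403, 976 and 2066 normalized counts in WT and 1111, 1143 and 1006 in *Raf926* and was not called (log2 fold change −0.45, 95% interval −1.02 to 0.13). Its groups overlapped, and it was called lower without WT replicate 2 (log2 fold change −0.73) and with both alternative scalings named above.

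The active zone genes were reduced to between 32.3% and 53.2% of WT in *Raf926* embryos, apart from the pore of the calcium channel, with 4 of 5 called lower. *brp*, which encodes the scaffold Bruchpilot, had 1996, 1501 and 3161 normalized counts in WT and 893, 1018 and 836 in *Raf926* (log2 fold change −1.28, standard error 0.26, adjusted p = 0.0038). *Rbp*, the gene of the RIM-binding protein, fell further, with 874, 721 and 1336 normalized counts in WT and 350.2, 301 and 294 in *Raf926* (log2 fold change −1.63, standard error 0.25, adjusted p = 0.001). Both lay below WT in every replicate. *Rim* encodes a scaffold that ties vesicles to calcium channels and had 918, 622 and 1549 normalized counts in WT and 641, 509 and 495 in *Raf926*. *Rim* was called (log2 fold change −0.91, standard error 0.32, adjusted p = 0.038) although its groups overlapped, the one called gene of which this was so. The call was lost without WT replicate 3 (log2 fold change −0.49) and without *Raf926* replicate 2 (−0.83, adjusted p = 0.11).

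*cac* and *stj* encode the pore and the accessory subunit of the same presynaptic calcium channel, and they differed. *stj* had 575, 377 and 859 normalized counts in WT and 308, 327 and 279 in *Raf926* and was called lower (log2 fold change −0.99, standard error 0.29, adjusted p = 0.021). *cac* had 666, 529 and 998 normalized counts in WT and 761, 717 and 686 in *Raf926*, with groups that overlapped (log2 fold change −0.02, 95% interval −0.56 to 0.52). The sign of the *cac* value changed when *Raf926* replicate 2 or 3 or WT replicate 3 was left out, to 0.28 in the last case. In TPM, *stj* stood at 1.54, 1.26 and 1.51 times *cac* in the WT replicates and at 0.673, 0.8 and 0.683 times in the *Raf926* replicates. *brp* stood at 3.38, 3.23 and 3.64 times *cac* in WT and 1.3, 1.59 and 1.35 times in *Raf926*. Both ratios were close among the replicates of a genotype and did not overlap between genotypes (exact permutation test of the log2 ratio, two-sided, p = 0.1 for each, the smallest it can give). *stj* and *brp* were already lower without overlap in the counts while *cac* was not called, so the ratios largely restate those falls. Their separation is no independent support, and the pairs were chosen after the values were seen.

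The transmitter genes held the largest reductions of the whole set, and the genes of the different transmitters were not reduced alike. The glutamate gene and both GABA genes fell to between 5.74% and 8.51% of WT, while the cholinergic genes kept 33.6% and 63.1%. *VGlut*, which encodes the vesicular glutamate transporter (chromosome 2L, 2400295 to 2410662), had 1024, 743 and 1376 normalized counts in WT and 19.8, 124 and 36.8 in *Raf926*. Its level in *Raf926* embryos was 5.74% of WT (log2 fold change −4.11, standard error 0.63, adjusted p = 0.0011). The *Raf926* replicates differed widely, with replicate 2 at 4.38 times the mean of replicates 1 and 3, and without replicate 2 the log2 fold change was −5.17. *Gad1* encodes the enzyme that makes GABA and had 1082, 818 and 1563 normalized counts in WT and 48.9, 159 and 86.2 in *Raf926* (log2 fold change −3.55, standard error 0.45, adjusted p = 0.00048). Replicate 2 was again the highest, at 2.36 times the others. *VGAT*, the vesicular GABA transporter gene, had 296, 273 and 448 normalized counts in WT and 20.9, 32.5 and 29.4 in *Raf926* (log2 fold change −3.61, standard error 0.32, adjusted p = 0.00011). The *VGAT* replicates agreed more closely than those of *Gad1*.

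The cholinergic locus holds *VAChT*, the vesicular acetylcholine transporter gene, inside the first intron of *ChAT*, the gene of the synthetic enzyme, with a shared first exon (chromosome 3R, 18705501 to 18732344). The 2 genes share 606 exon bases in BDGP6.54, so RSEM could divide reads of that stretch either way. *VAChT* had 853, 656 and 1267 normalized counts in WT and 359, 314 and 259.6 in *Raf926* and was called lower (log2 fold change −1.57, standard error 0.27, adjusted p = 0.0017). *ChAT* had 202, 110.0 and 286 normalized counts in WT and 91.9, 187 and 98.8 in *Raf926*, with overlapping groups (log2 fold change −0.66, 95% interval −1.64 to 0.31, adjusted p = 0.21). It was called lower without *Raf926* replicate 2 (log2 fold change −1.035, adjusted p = 0.087) and without WT replicate 2 (−1.01). *Rdl*, which encodes a GABA-gated chloride channel, had 550.5, 434 and 1022 normalized counts in WT and 243, 365 and 301 in *Raf926* and was called lower (log2 fold change −1.14, standard error 0.33, adjusted p = 0.019). At 45.3% of WT, this receptor gene kept a larger share than the genes that make and load its transmitter.

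Set against *VAChT* within each sample, the RNA of *Gad1*, *VGlut* and *VGAT* was lower in every *Raf926* replicate than in every WT replicate. The TPM of *Gad1* was 3.04, 3 and 2.98 times that of *VAChT* in the WT replicates and 0.331, 1.21 and 0.796 times in the *Raf926* replicates. For *VGlut* the ratio was 1.49, 1.42 and 1.36 in WT and 0.0719, 0.5 and 0.173 in *Raf926*. For *VGAT* it was 0.969, 1.17 and 0.992 in WT and 0.165, 0.295 and 0.316 in *Raf926*. These 3 ratios were much alike among the WT replicates, although the counts of each of these genes were higher in WT replicate 3 than in WT replicate 2. The ratio of *ChAT* to *VAChT* went the other way, from 0.43, 0.305 and 0.422 in WT to 0.46, 1.09 and 0.694 in *Raf926*, for a pair of genes that share exon bases. Its nearest replicates, at 0.43 and 0.46, almost met, and *ChAT* itself was not called. None of the 4 ratios overlapped between genotypes (exact permutation test of the log2 ratio, two-sided, p = 0.1 for each, the smallest it can give). *Gad1*, *VGlut* and *VGAT* had fallen further than *VAChT* in the counts, so their ratios largely restate those changes and are no independent support. The pairs were chosen after the values were seen.

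**Figure D3:**
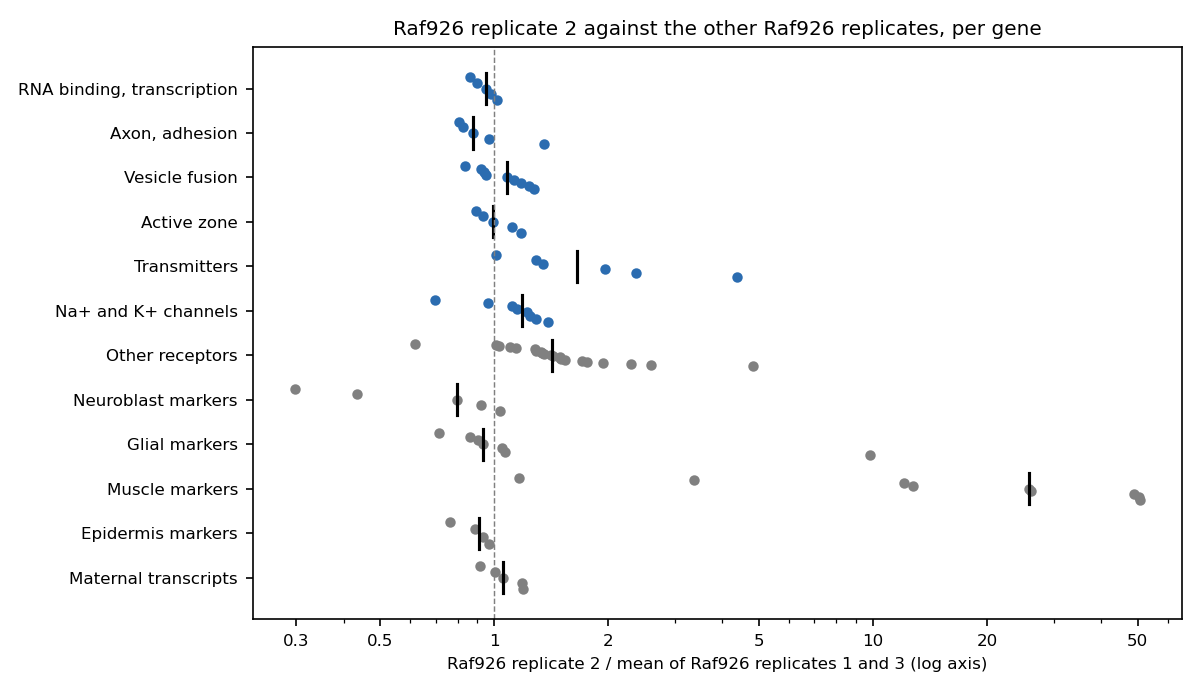
Normalized count of each gene in *Raf926* replicate 2 divided by the mean of *Raf926* replicates 1 and 3, on a log axis, for the 6 neuronal groups (blue), other transmitter receptors and the marker lists (grey), with a black bar at each median. Muscle markers have a median ratio of 25.7, while the 38 neuronal genes have a median of 1.05, with *VGlut* at 4.38, *Gad1* at 2.36 and *ChAT* at 1.96, and the other receptors a median of 1.42.

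The excess of muscle RNA in *Raf926* replicate 2 was set beside the neuronal genes. The ratio of replicate 2 to the mean of replicates 1 and 3 had a median of 1.05 over the 38 genes, 25.7 over the 9 muscle markers and 1.01 over all genes tested. It was 1.65 over the 6 transmitter genes and 1.42 over the 22 other transmitter receptor genes, where replicate 2 was the highest in 16. It was above 2 in 2 of the 38 genes (*VGlut* and *Gad1*) and in 5.63% of all genes tested. Replicate 2 was the highest *Raf926* replicate in 19 of the 38 genes, replicate 1 in 14 and replicate 3 in 5. Over the 11568 genes tested these numbers were 4131, 4039 and 3398. In the RNA-binding and transcription factor group replicate 1 was the highest in 4 of 5 genes, and in the transmitter group replicate 2 was the highest in 5 of 6. The part of the muscle excess in the transmitter and receptor values was not tested. Without *Raf926* replicate 2, 26 genes were again called lower and 1 higher. Over the 38 genes the coefficient of variation had a median of 33.1% among the WT replicates and 14.6% among the *Raf926* replicates, against 15.7% and 12% over all genes tested.

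The sodium channel genes *para* and *tipE* were not called, and most of the potassium channel genes were called lower. Of 8 channel genes, 5 were called lower and 3 were not, with a median log2 fold change of −1.07 against −2.56 for the 6 transmitter genes. *para* encodes the voltage-gated sodium channel that carries the action potential, and had 730.4, 458 and 1107 normalized counts in WT and 635, 665 and 750.5 in *Raf926*. The groups overlapped (log2 fold change −0.16, 95% interval −0.84 to 0.52). *tipE*, the gene of its auxiliary subunit, had 203, 161 and 258 normalized counts in WT and 192, 219 and 149 in *Raf926* (log2 fold change −0.15, 95% interval −0.76 to 0.46). Both values turned positive without WT replicate 3, to 0.21 for *para* and 0.04 for *tipE*, and *tipE* shares 19% of its exon bases with *CG18675* on the same strand. Against *elav*, *para* was at 0.0261, 0.0144 and 0.0335 times in the WT replicates and 0.114, 0.161 and 0.203 times in the *Raf926* replicates in TPM, without overlap (exact permutation test of the log2 ratio, two-sided, p = 0.1, the smallest it can give). With *para* not called, this ratio mainly restates the fall of *elav* and says nothing further about *para*. The 95% interval of *para* reaches past a fall of 1.5-fold. The pair was chosen after the values were seen.

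Of the 6 potassium channel genes among the 38, 5 were called lower and *sei* was not called. *Shal*, a gene of the fast transient A-type current of neuronal cell bodies, fell most, with 695, 494 and 883 normalized counts in WT and 145, 162 and 115 in *Raf926* (log2 fold change −2.30, standard error 0.27, adjusted p = 0.00034). *Sh*, the Shaker gene, had 582, 398 and 921 normalized counts in WT and 250.1, 299 and 270.1 in *Raf926* (log2 fold change −1.22, standard error 0.30, adjusted p = 0.0097). *Shab*, a gene of the delayed rectifier current, had 691, 574 and 1304 normalized counts in WT and 339, 427 and 279 in *Raf926* (log2 fold change −1.30, standard error 0.33, adjusted p = 0.011). In these 3 genes every *Raf926* value lay below every WT value. *slo*, the calcium-activated potassium channel gene, had 876, 643 and 1403 normalized counts in WT and 325, 413 and 351 in *Raf926* (log2 fold change −1.42, standard error 0.29, adjusted p = 0.0038). *eag*, the founder of the ether-a-go-go family, had 219.6, 205 and 421 normalized counts in WT and 151, 159 and 135 in *Raf926* (log2 fold change −0.93, standard error 0.31, adjusted p = 0.035), and its call was lost without WT replicate 3 (log2 fold change −0.51). *sei*, the fly gene of the related ERG channel, had 282, 253 and 288 normalized counts in WT and 228, 156 and 221 in *Raf926*. The *sei* groups did not overlap, but the change was short of the threshold (log2 fold change −0.44, standard error 0.22, adjusted p = 0.12), and 11% of its exon bases lie opposite the gene *gammaSnap1*. It was called lower with library size alone and with upper-quartile normalization.

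Levels per transcript length show how the composition of the set changed. In WT, *elav* had the highest TPM of the 38 genes, with 65.6, 73.9 and 81.7 in replicates 1, 2 and 3, followed by *Fas2* with 60.5, 55.5 and 77. These 2 genes overlapped in WT, as did *Fas2* and *Rop*, which had 49.2, 50.7 and 57.6. In *Raf926* embryos *Fas2* was first, with 63.9, 46.8 and 49.9 TPM, followed by *Rop* with 41, 37.8 and 37.9, *Syx1A* with 37.6, 36.3 and 37.7 and *unc-13* with 24.8, 24.6 and 26.2. The lowest *Rop* value was just above the highest *Syx1A* value, and *unc-13* lay below both. *elav* was at rank 5, with 11.5, 8.05 and 7.18. The 4 genes above it were among those that were not called lower. At the other end, *eag* had the lowest WT mean of 1.13 TPM, and *VGlut* and *VGAT* the lowest *Raf926* means of 0.293 and 0.3 TPM, down from 6.15 and 4.46.

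**Figure D4:**
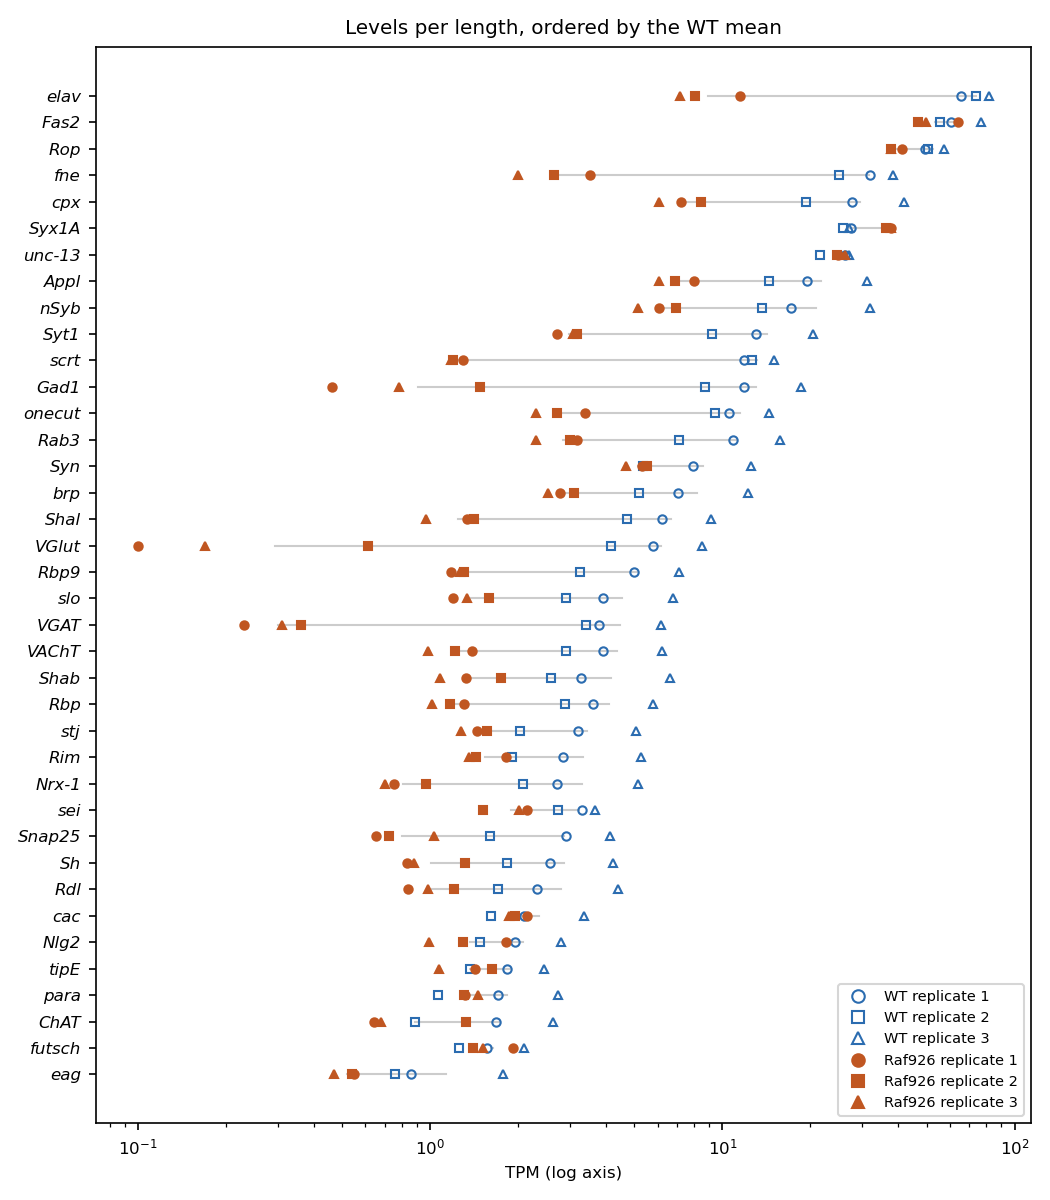
TPM of the 38 neuronal genes on a log axis, ordered by the WT mean, with open blue symbols for WT and filled orange symbols for *Raf926* replicates and a grey line between the group means. *elav* leads in WT at a mean of 73.7 TPM and falls to 8.91, while *Fas2*, *Rop*, *Syx1A* and *unc-13* keep 25.2 TPM or more.

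The transcript mix of a gene was a further readout. RSEM reports for each gene a length averaged over its transcripts by their estimated abundance, so a shift in this length is a shift in the estimated mix. It was read for the 32 genes with more than 1 transcript and at least 100 counts in every sample. The length was shorter in every *Raf926* replicate than in every WT replicate for 11 of the 32 genes and longer for 3, where over the 5007 genes of all kinds that met these conditions the shares were 24% and 18%. The median change was small, to 99.7% of the WT length. *nSyb* had the largest shortening, from 2787, 2598 and 2698 bases in the WT replicates to 2172, 2350 and 2354 in the *Raf926* replicates. A shortening of over 10% without overlap was found for 1.9% of all such genes. *fne* had the largest lengthening, from 4462, 4457 and 4588 bases to 4908, 5117 and 4978, and a lengthening of over 10% without overlap was found for 1.38% of all such genes. *scrt* went from 8513, 8103 and 8286 bases to 9075, 9075 and 9075, the same value in each *Raf926* replicate. *elav* overlapped, with 5869, 5634 and 5592 bases in WT and 5573, 5889 and 6070 in *Raf926*. These lengths are estimates that rest on few counts in the reduced genes, and no test was made of them.

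**Figure D5:**
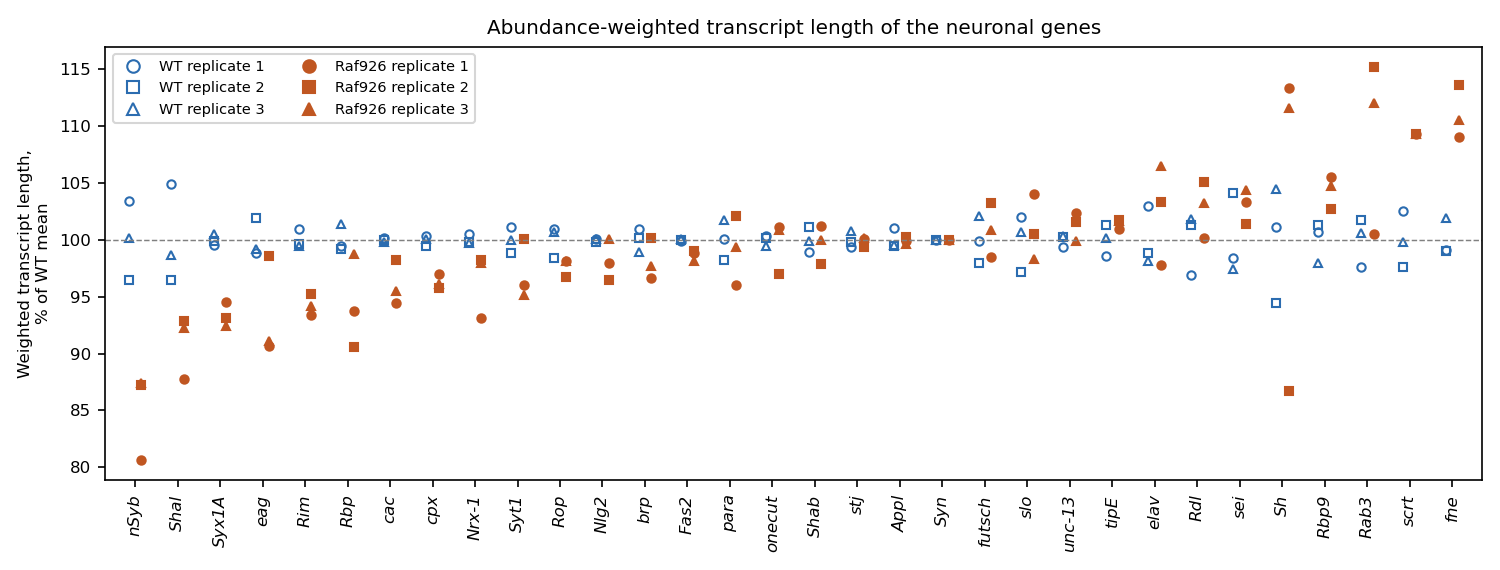
Abundance-weighted transcript length of 32 neuronal genes in each sample as a percent of the WT mean, ordered by the *Raf926* mean. *nSyb* lies lowest, at 85.1% of the WT length, and *fne* highest at 111%, while most genes lie within a few percent of WT.

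A wider list of 87 other neuronal genes, of which 86 were found and tested, also leaned downward, with 51 called lower, 10 higher and 25 not called and a median log2 fold change of −0.95. These were 59.3% lower and 11.6% higher, against 26.9% and 22.7% of all genes tested. Transmitter receptors were reduced most broadly, with 19 of 22 called lower and the 3 others (*nAChRalpha3*, *nAChRalpha4* and *Grd*) not called, and a median of −2.09. Nicotinic receptor subunit genes were prominent among them, with *nAChRalpha6* at −3.48 (standard error 0.66) and *nAChRbeta1* at −3.28. Among 10 other genes of the active zone and synaptic adhesion 6 were called lower, and among 9 other genes of neuron differentiation 6 were called lower and 1 higher (*stai*, at 1.23). *nerfin-1*, a zinc finger gene of early neurons, had the largest fall of the wider list, with 4156, 4684 and 4713 normalized counts in WT and 215, 154 and 202 in *Raf926* (log2 fold change −4.57, standard error 0.16, adjusted p = 6.4e-06). *Sytalpha*, a synaptotagmin gene, *SerT*, the serotonin transporter gene, and *Irk2*, a potassium channel gene, followed with *nAChRalpha6*, at log2 fold changes of −4.29, −3.77 and −3.44. *Sytalpha* rested on 1 to 6 counts in the *Raf926* replicates. Without *Raf926* replicate 2, where they were highest, *nAChRalpha6* was at −4.64 and *Irk2* at −4.77.

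Other genes of the vesicle cycle and other channel genes were called in both directions. The shares called higher, 23.5% and 13.6%, were near or below the 22.7% of all genes tested. The shares called lower were 41.2% and 40.9%, against 26.9% of all genes. Of 17 other genes of the vesicle cycle, 7 were called lower and 4 higher (*Rph*, *Synj*, *shi* and *Tomosyn*), and of 22 other channel genes, 9 were called lower and 3 higher (*Irk1*, *KCNQ* and *Ork1*). *Rph*, which encodes the Rab3 effector rabphilin, had 209.9, 111 and 176 normalized counts in WT and 1181, 1014 and 727 in *Raf926* (log2 fold change 2.56, standard error 0.29, adjusted p = 0.00031), the opposite direction to *Rab3*. *shi* encodes dynamin, which acts in endocytosis in all cells, and had a log2 fold change of 0.73, a rise no longer called with library size alone (0.53) or upper-quartile normalization (0.57). Of the 6 genes of monoamine neurons, 4 were called lower (*SerT*, *Trh*, *Tdc2* and *Tbh*) and 2 higher. *ple* encodes tyrosine hydroxylase, which makes dopamine and also serves cuticle tanning in the epidermis, and had the largest rise of the wider list, with 678, 539.5 and 1107 normalized counts in WT and 4680.3, 4118 and 7165 in *Raf926* (log2 fold change 2.78, standard error 0.31, adjusted p = 0.00031). The other was the dopamine transporter gene *DAT*, at 1.26 (standard error 0.28), with *Irk1* at 1.81 and *KCNQ* at 1.26. The 4 epidermal markers rose beside *ple*, with sums of 15935, 13549 and 22176 normalized counts in WT and 116727, 96265 and 86358 in *Raf926*, and their part in its rise was not tested.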

How the data were processed

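The authors aligned the paired reads of each sample with STAR 2.7.1a to BDGP6.22 (Ensembl 97) and deposited RSEM 1.3.1 tables without pooling. The tables of the authors hold an expected count per gene, not normalized, a TPM value per gene and an abundance-weighted length in bases (unit: other). The deposited FPKM values were not used. Of the expected counts 11.5% were not whole, and rounding was applied to all. Names, biotypes and coordinates of genes are from BDGP6.54 (Ensembl 115), a later annotation that matched 17587 of the 17714 identifiers.

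As in the study, 390 rRNA, snoRNA and snRNA genes and genes with a mean under 10 counts were removed, which left 11568. Counts were scaled by TMM (edgeR 4.0.16, R 4.3.3) to the mean library size of these genes and tested by the quasi-likelihood method of edgeR, with p-values adjusted by Benjamini-Hochberg. The study used DESeq2, here an alternative (DESeq2 1.42.0). The standard error is the log2 fold change divided by the square root of F, and 95% intervals use edgeR's degrees of freedom. The procedure was tested on simulated counts. Replicate pairs differed by 28 or more in chi-square per degree of freedom, so none were duplicates. Intervals rest on the spread between samples, and the study calls the replicates biological. Separate crosses are not stated, so whether p-values measure the spread between independent crosses is not known. Reads were counted without molecular identifiers.

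All 38 genes were named, in role groups. Of the wider list the 5 largest falls and 5 largest rises were named, as were genes in counts of 5 or fewer. *nAChRbeta1*, *nAChRbeta2* and *shi* were chosen with their values already seen. The genes and lists were chosen with earlier results of these data known. Other settings tried were, for scaling, the DESeq2 size factors, upper-quartile and library size only, for testing, the Wald test of DESeq2, a block for replicate number and a test against the 1.5-fold threshold, for filtering, filterByExpr and no filter, for the threshold, an adjusted p under 0.05 and no fold change minimum, and omission of every sample in turn. Plots were made in matplotlib 3.10.9, and *Ca-beta* of the wider list was not analysed here.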

Additional observations from a re-analysis of the deposited data

How the results depend on the processing

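Of the 27 calls among the neuronal genes, 24, all lower, were made in each of the 13 refits with another scaling, filter, test, the block or a sample left out. The exceptions were *Syx1A*, *Rim* and *eag*. The number called higher, 1, was 0 with library size alone, with upper-quartile normalization and in the test against the fold change of 1.5, and 2 with no fold change threshold. The number called lower was between 23 and 28 in every setting. With 1 sample left out it was between 24 (without WT replicate 3) and 28 (without WT replicate 2), with 1 higher each time, and the median log2 fold change lay between −1.59 and −0.99. With 1 sample left out, the wider list had between 48 and 55 genes called lower and between 9 and 14 higher. Same-numbered replicates did not deviate together (correlations across genes of −0.046, −0.202 and −0.187 for numbers 1, 2 and 3), so no pairing by number was seen. With 3 samples per group this check cannot exclude a shared collection or batch. With the replicate block, 26 neuronal genes were called lower and 1 higher, with a median of −1.26, and 5493 genes were called in all against 5747, and *cac* turned from −0.02 to 0.031. With 1 sample left out, values whose sign could turn lay between −0.148 and 0.123 for *Fas2*, −0.260 and 0.278 for *cac*, −0.480 and 0.206 for *para*, and −0.358 and 0.042 for *tipE*, none of them called. Depth limits *VGlut*, with 17, 118 and 35 counts in the *Raf926* samples, and *VGAT*, with 18, 31 and 28.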
